A study of Mus musculus with 18 samples.

Results

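The genes of the proteasome were followed through 18 microarray samples of mouse aorta. Members were chosen by name: every probe set annotated to a single gene whose symbol begins with Psma, Psmb, Psmc, Psmd or Psme and then a digit. This gave 76 probe sets for 43 genes, of 12393 genes with a probe set of their own. Of the 43 genes, 41 encode subunits, assembly chaperones or activators of the proteasome. The other 2, Psmc3ip (a meiotic recombination factor) and Psme3ip1 (a binding partner of Psme3), carry similar names without being subunits. A gene was tested if a probe set of it had a log2 value above 4 in at least 3 samples, and the probe set with the highest mean stood for the gene. By that filter 38 members were tested among 7092 genes in all, namely 14 core subunits, 19 regulatory genes, 3 activators, the immunoproteasome subunit Psmb8, and Psme3ip1. In 37 of the 38 every sample lay above 4, and Psmb8 did so in 17 of 18 samples. Psma8 (an alpha subunit of the testis), Psmb9 and Psmb10 (immunoproteasome subunits), Psmd9 (an assembly chaperone) and Psmc3ip stayed below the filter.

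All 18 samples came from male C57Bl/6 mice, described as wild type, that had received spironolactone, which blocks the mineralocorticoid receptor, from a pellet under the skin at 20 mg/kg/day over 5 days. The study gave this treatment to lower basal signalling through that receptor, and the vehicle samples share it. Aortas were kept in organ culture in DMEM with aldosterone at 100 nM or with vehicle for 2, 4 or 8 h. Each of the 6 groups held 3 samples, and each sample was a pool of 3 aortas. No uncultured aorta was analysed here, so every comparison in time is between cultured tissues.

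The proteasome degrades proteins tagged with ubiquitin. Its core particle is a barrel of alpha and beta rings with the cutting sites inside, and the regulatory particle at its ends recognises the tagged protein, removes the ubiquitin and threads the chain in with a ring of ATPases. Interferon replaces the cutting subunits Psmb5, Psmb6 and Psmb7 with Psmb8, Psmb9 and Psmb10 in newly built particles, the immunoproteasome, which supplies peptides for class I antigen presentation. When proteasome activity falls short, the transcription factor Nrf1, encoded by Nfe2l1, raises most subunit genes together.

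Deposited values are log2 estimates made with GCRMA, and each reads as a level of one probe set, so that it can be compared between samples but not between genes. Pairs of samples correlated at 0.838 to 0.994. The library labelled vehicle 2 h replicate 1 differed from the rest: its median over all probe sets was 4.42, against 4.01 to 4.09 in the other samples, and 908 of the 7092 genes differed by over 1 from the mean of its group mates. Among proteasome genes the median deviation of that sample was 0.52, and Psmd14 and Psmd8 deviated by over 1. The smooth muscle markers summed to between 16.04 and 16.46 on the log2 scale at 2 h, with all 9 listed markers above the filter.

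Aldosterone was not seen to change any proteasome gene. With limma's moderated test, adjusted over all 7092 genes, 0 of 38 were called at 2 h, where 0.0705% of all genes were called, 0 at 4 h (0.24%), 0 at 8 h (1%) and 0 in the mean of the 3 times (1.1%). The test of whether the aldosterone effect differed between times called 0 of 38, against 0.155% of all genes. Without adjustment, p was under 0.05 for Psmd14 at 2 h, for no member at 4 h, for Psmb8 at 8 h, and for Psmd11 in the mean of the 3 times. The median difference of the 38 genes was -0.01, -0.01 and 0.02 at 2, 4 and 8 h, beside -0.07 over all genes at 2 h.

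The precision of these comparisons can be read from the intervals. In the mean over times the 95% interval stayed within 0.5 of 0 on the log2 scale for 35 of 38 genes, and the exceptions were Psmb8, Psmd14 and Psme3. At single times it did so for 26, 25 and 28 genes at 2, 4 and 8 h. Aldosterone and vehicle values did not overlap for 0 of 38 genes at 2 h, where they did not for 13.9% of all genes, for 4 at 4 h (10.6% of all genes), namely Psmb8, Psmc4, Psmd11 and Psme3ip1, and for 1 at 8 h (14.5% of all genes), namely Psma6. None of these 5 was called, and the shares of the members were near or below those of all genes. Psmd11, a lid subunit of the regulatory particle, had a mean difference of -0.18 ± 0.07 (SE) with an adjusted p of 0.48. Psmd14, the deubiquitinase of the lid, had a difference of 1.04 ± 0.41 (SE) at 2 h with an adjusted p of 0.35. Its values were 8.62, 8.63 and 8.28 in aldosterone samples at 2 h, against 5.88, 8.12 and 8.40 in vehicle samples, so the difference rests on the single vehicle sample that stood apart.

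**Figure D1:**
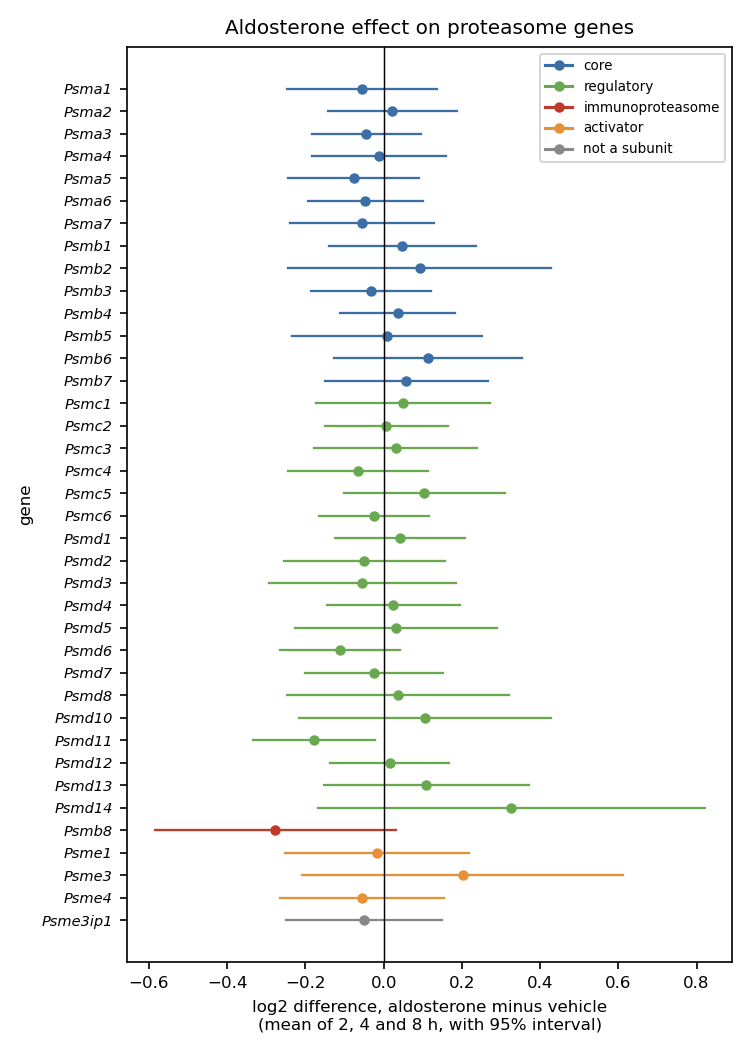
Log2 difference of aldosterone minus vehicle for each of the 38 tested genes, as the mean over 2, 4 and 8 h, with its 95% interval and coloured by class. The differences lie between -0.28 (Psmb8) and 0.33 (Psmd14), and the interval excludes 0 only for Psmd11, whose adjusted p is 0.48.

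Time in culture moved most proteasome genes, and it did so with aldosterone and with vehicle. Between 2 and 8 h, 29 of 38 genes rose and 2 fell with aldosterone, where 29.2% of all genes rose and 27.3% fell (56.5% called). With vehicle 27 rose and 2 fell, where 26.6% of all genes rose and 31.9% fell (58.5% called). The median difference of the members at 8 h against 2 h was 0.60 with aldosterone and 0.59 with vehicle, beside 0.02 and -0.07 over all genes tested. The members that rose in both treatments numbered 23, which is 79.3% of the aldosterone calls and 85.2% of the vehicle calls, and the difference had the same sign in both treatments for 38 of 38. The treatments share no samples. Psmb1 and Psmb6 were called in neither. Calls made with only one treatment are not shown to differ between treatments, since the test of that difference called none.

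The change was followed step by step and class by class, without a test of the difference between classes. Between 2 and 4 h, 7 of 38 genes rose and 2 fell with aldosterone, beside 17.3% and 21.3% of all genes, and 7 rose and 2 fell with vehicle, beside 14.6% and 25.6%. Few core subunits passed the test over this step, with 1 of 14 higher with aldosterone (median 0.00) and 0 of 14 with vehicle (median -0.04). Of the 19 regulatory genes, 4 were higher and 1 lower with aldosterone (median 0.13), and 7 were higher and 1 lower with vehicle (median 0.29). Between 4 and 8 h, 21 of 38 genes rose and 1 fell with aldosterone, beside 21% and 16.6% of all genes, and 21 rose and 0 fell with vehicle, beside 20.7% and 17%. In this step 9 of 14 core subunits rose in each treatment (medians 0.46 with aldosterone and 0.47 with vehicle), as did 11 of 19 regulatory genes in each (medians 0.55 and 0.47).

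The counts of the early step depended on single samples. With vehicle, 14 genes in place of 9 were called in either direction between 2 and 4 h (40.2% of all genes) without vehicle 2 h replicate 1, and 5 without vehicle 4 h replicate 1 or replicate 3. With aldosterone, 9 were called in the fit of all samples, where 38.6% of all genes were called. The count was 5 without aldosterone 2 h replicate 1 or 4 h replicate 3. Between 4 and 8 h, 37.5% of all genes were called with aldosterone and 37.7% with vehicle in the fit of all samples. That step gave 13 in place of 21 vehicle calls without vehicle 8 h replicate 1. The share of all genes called with a sample left out is not given here.

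**Figure D2:**
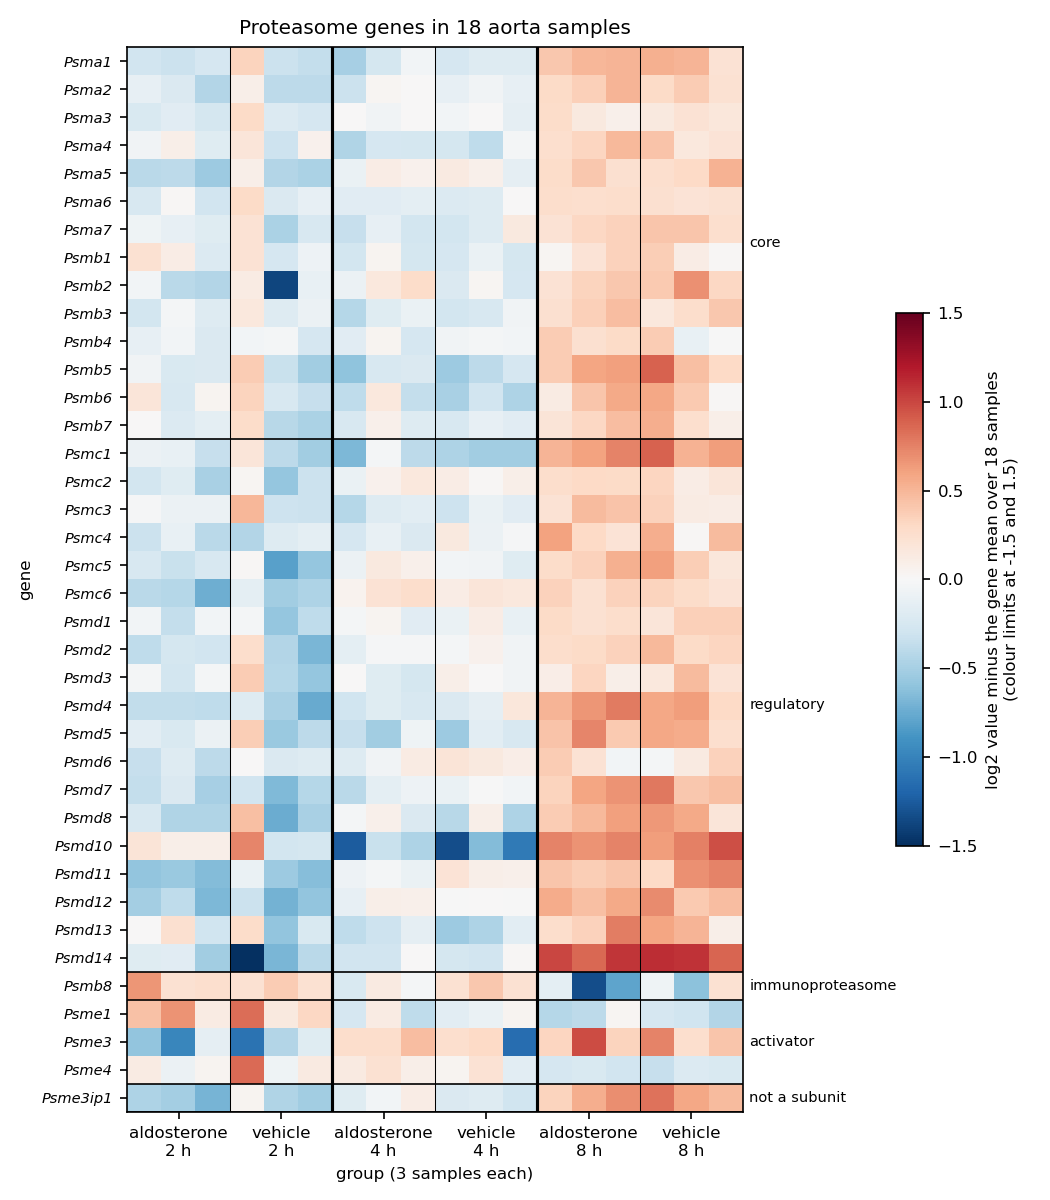
Log2 value of each tested gene (rows, by class) in each of the 18 samples (columns, by time and treatment) minus the gene's mean over all samples, with colour limits at -1.5 and 1.5. Most core and regulatory rows are above their mean in all samples at 8 h, while Psmb8, Psme1 and Psme4 run the other way, and Psmd14 in vehicle 2 h replicate 1 (5.88) is the darkest cell.

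The non-ATPase subunits of the regulatory particle held the members with the smallest p-values at 8 h against 2 h. Psmd12, a lid subunit, had values of 8.39, 8.52 and 8.22 with aldosterone and 8.58, 8.19 and 8.30 with vehicle at 2 h. At 4 h they were 8.78, 8.99 and 8.97 with aldosterone and 8.89, 8.90 and 8.89 with vehicle, and at 8 h 9.45, 9.35 and 9.47 with aldosterone and 9.61, 9.29 and 9.36 with vehicle. All samples of a later time lay above all samples of an earlier time within each treatment, and the 8 h against 2 h difference was 1.05 ± 0.13 (SE, adjusted p = 1.7e-06) with aldosterone and 1.06 ± 0.13 (SE, adjusted p = 1.3e-06) with vehicle. That is a 2.07-fold and a 2.09-fold higher level. Psmd11, which braces the lid against the core, rose by 1.002 ± 0.13 (adjusted p = 3.7e-06) with aldosterone and by 1.004 ± 0.13 (adjusted p = 3.5e-06) with vehicle. Psmd4, a receptor for ubiquitin chains, rose by 1.02 ± 0.14 with aldosterone and 0.98 ± 0.14 with vehicle, and Psmd7, the partner of the deubiquitinase Psmd14, by 0.89 ± 0.14 with aldosterone and 1.01 ± 0.14 with vehicle.

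The probe sets of Psmd11 and Psmd7 did not all show these rises. Psmd11 has 6 probe sets above the filter. Of the other 5, 2 were called higher in both treatments, at 1.15 and 1.36 with aldosterone and 1.03 and 1.24 with vehicle. The remaining 3 were not called, at 0.31, 0.59 and 0.10 with aldosterone and 0.30, 0.72 and -0.18 with vehicle. The samples of the first of these lay between 8.29 and 8.89. Those of the last 2 lay between 3.23 and 5.25 and between 3.95 and 4.62, near the filter value of 4, which limits what they show. The second probe set of Psmd7 was not called, with 0.00 with aldosterone and 0.04 with vehicle. Its values stayed between 4.98 and 5.44 in all samples, a dim signal that limits what it shows. Averaging the probe sets of each gene gave 0.45 with aldosterone and 0.52 with vehicle for Psmd7, both still called. Among 16 members with several tested probe sets, all had the same sign in 15 with aldosterone, the exception being Psma1, and in 13 with vehicle, the exceptions being Psma1, Psmc6 and Psmd11.

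Psmd14 itself removes the ubiquitin chain before a protein is degraded. At 8 h its values were 9.80, 9.66 and 9.87 with aldosterone and 9.91, 9.88 and 9.68 with vehicle, all above every sample at 2 and 4 h. The 8 h against 2 h difference was 1.27 ± 0.41 (SE, adjusted p = 0.013) with aldosterone and 2.36 ± 0.41 (SE, adjusted p = 8.8e-05) with vehicle, and the vehicle value was 1.56 without vehicle 2 h replicate 1. Most of its change fell between 4 and 8 h, with 1.17 ± 0.41 for aldosterone and 1.20 ± 0.41 for vehicle. The vehicle difference between 2 and 4 h, 1.16 with an adjusted p of 0.031, was 0.36 with an adjusted p of 0.052 when that sample was left out. The calls between 4 and 8 h had adjusted p-values of 0.031 with aldosterone and 0.027 with vehicle. The first was lost without any one of aldosterone 4 h replicates 1 and 2 and all 8 h replicates (up to 0.084). The second was lost without vehicle 4 h or 8 h replicate 1 or 2 (up to 0.074). The SE of 0.41 rests on a spread shared by all 6 groups, which includes the 5.88 of vehicle 2 h replicate 1. That sample is not among those compared in either step.

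Over 8 h against 2 h, 29.2% of all genes rose with aldosterone and 26.6% with vehicle. Of the 11 non-ATPase subunits, 9 rose with aldosterone and 10 with vehicle. The vehicle calls of Psmd3, Psmd13 and Psmd8 were lost without any one of 5, 4 and 3 samples (adjusted p up to 0.21, 0.16 and 0.083). The aldosterone call of Psmd1 was lost without 1 sample (0.097). Of the 6 ATPases, which unfold the substrate, 6 rose with aldosterone and 5 with vehicle. The aldosterone call of Psmc3 was lost without any one of 5 samples (adjusted p up to 0.11). Between 2 and 4 h, 2 of 6 ATPases were called higher in each treatment, Psmc2 and Psmc6. Of all genes, 17.3% rose over this step with aldosterone and 14.6% with vehicle. Each Psmc2 call was lost without any one of 4 samples (adjusted p up to 0.16). The Psmc6 values at 2 h were 9.79, 9.77 and 9.46 with aldosterone and 10.05, 9.67 and 9.74 with vehicle. At 4 h they were 10.25, 10.41 and 10.46 with aldosterone and 10.31, 10.38 and 10.35 with vehicle. The groups did not overlap, and the 4 h against 2 h difference was 0.70 ± 0.12 (adjusted p = 0.00018) with aldosterone and 0.53 ± 0.12 (adjusted p = 0.0018) with vehicle. Its remaining probe sets were less uniform. For vehicle at 8 h against 2 h they gave 0.18 and -0.20, neither called, beside 0.64 for the probe set that stood for the gene. The means of the first at 2, 4 and 8 h were 7.03, 7.45 and 7.18 with aldosterone and 6.98, 7.52 and 7.17 with vehicle. Those of the second were 4.69, 5.25 and 5.42 with aldosterone and 5.36, 5.37 and 5.16 with vehicle. Psmc1, another ATPase, moved late, by 0.99 ± 0.18 with aldosterone and 1.18 ± 0.18 with vehicle between 4 and 8 h.

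The assembly chaperone Psmd10, also called gankyrin, which helps build the ATPase ring, went down before it went up. Its values were 5.65, 5.55 and 5.55 with aldosterone and 6.19, 5.18 and 5.20 with vehicle at 2 h. At 4 h they were 4.21, 5.12 and 5.00 with aldosterone and 4.13, 4.81 and 4.40 with vehicle, and at 8 h 6.20, 6.13 and 6.20 with aldosterone and 6.09, 6.21 and 6.43 with vehicle. The 4 h samples lay below all others in both treatments. The 4 h against 2 h difference was -0.81 ± 0.26 (adjusted p = 0.023) with aldosterone and -1.08 ± 0.26 (adjusted p = 0.0039) with vehicle. The 8 h against 4 h difference was 1.40 ± 0.26 (adjusted p = 0.00051) with aldosterone and 1.80 ± 0.26 (adjusted p = 5.2e-05) with vehicle, the largest of the members in each treatment. The other tested chaperone, Psmd5, rose by 0.82 ± 0.21 with aldosterone and 0.78 ± 0.21 with vehicle over that later step. The lower level of Psmd10 at 4 h with aldosterone was no longer called without aldosterone 2 h replicate 1 or 2 or 4 h replicate 1, the last of which left -0.53 (adjusted p = 0.14).

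In the core particle the alpha ring, which forms the gate and the docking surface for the regulators, rose at 8 h against 2 h in 7 of 7 subunits with aldosterone and 4 of 7 with vehicle. Of all genes, 29.2% rose with aldosterone and 26.6% with vehicle. The aldosterone calls of Psma4 and Psma7 were lost without any one of 3 and 4 samples (adjusted p up to 0.091 and 0.074). Psma5 had the smallest p of the ring in both treatments, with 0.76 ± 0.14 (adjusted p = 0.00015) for aldosterone and 0.63 ± 0.14 (adjusted p = 0.0008) for vehicle. Psma5 was also the only core subunit called between 2 and 4 h, at 0.47 ± 0.14 with aldosterone, a call lost without aldosterone 2 h replicate 3 (adjusted p = 0.05). Psma1 rose by 0.76 ± 0.16 with aldosterone and 0.53 ± 0.16 with vehicle, but its second probe set, which had a mean of 3.88, gave -0.09 and -0.15 and was not called. The structural beta subunits rose in 2 of 4 in each treatment, Psmb3 in both, Psmb4 with aldosterone and Psmb2 with vehicle. The vehicle call of Psmb3 was lost without vehicle 2 h or 8 h replicate 2 or 3 (adjusted p up to 0.14).

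Of the 3 constitutive cutting subunits, Psmb5 (chymotrypsin-like activity) and Psmb7 (trypsin-like activity) rose at 8 h against 2 h in both treatments, and Psmb6 (caspase-like activity) did not pass the test in either. Psmb5 had values of 8.36, 8.18 and 8.20 with aldosterone and 8.79, 8.08 and 7.89 with vehicle at 2 h, and of 8.79, 9.01 and 9.03 with aldosterone and 9.30, 8.86 and 8.71 with vehicle at 8 h. The aldosterone groups did not overlap, and the vehicle groups did, through vehicle 2 h replicate 1. The difference was 0.70 ± 0.20 in each treatment (adjusted p = 0.0067 with aldosterone and 0.006 with vehicle). For Psmb7 it was 0.43 ± 0.17 (adjusted p = 0.039) with aldosterone and 0.50 ± 0.17 (adjusted p = 0.019) with vehicle. The Psmb7 calls were lost without replicate 2 or 3 of either aldosterone time (adjusted p up to 0.14), and without vehicle 2 h replicate 2 or 3 or vehicle 8 h replicate 1 (up to 0.10). For Psmb6 the difference was 0.37 ± 0.20 (adjusted p = 0.12) with aldosterone and 0.41 ± 0.20 (adjusted p = 0.083) with vehicle.

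None of the 3 was called between 2 and 4 h in either treatment, where the differences with aldosterone and with vehicle were -0.19 and -0.24 for Psmb5, -0.19 and -0.33 for Psmb6, and 0.00 and 0.03 for Psmb7. Between 4 and 8 h the difference with aldosterone was 0.88 for Psmb5 (adjusted p = 0.0022), 0.56 for Psmb6 (adjusted p = 0.033) and 0.43 for Psmb7 (adjusted p = 0.055). With vehicle it was 0.94 for Psmb5 (adjusted p = 0.0014), 0.74 for Psmb6 (adjusted p = 0.0068) and 0.47 for Psmb7 (adjusted p = 0.037). The Psmb6 samples at 4 and 8 h overlapped with aldosterone, and they did not with vehicle. Its aldosterone call was lost without 4 h replicate 1 or 3 or 8 h replicate 2 or 3 (adjusted p up to 0.13), and the vehicle call of Psmb7 without any one of the samples compared other than vehicle 8 h replicate 3 (up to 0.18).

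**Figure D3:**
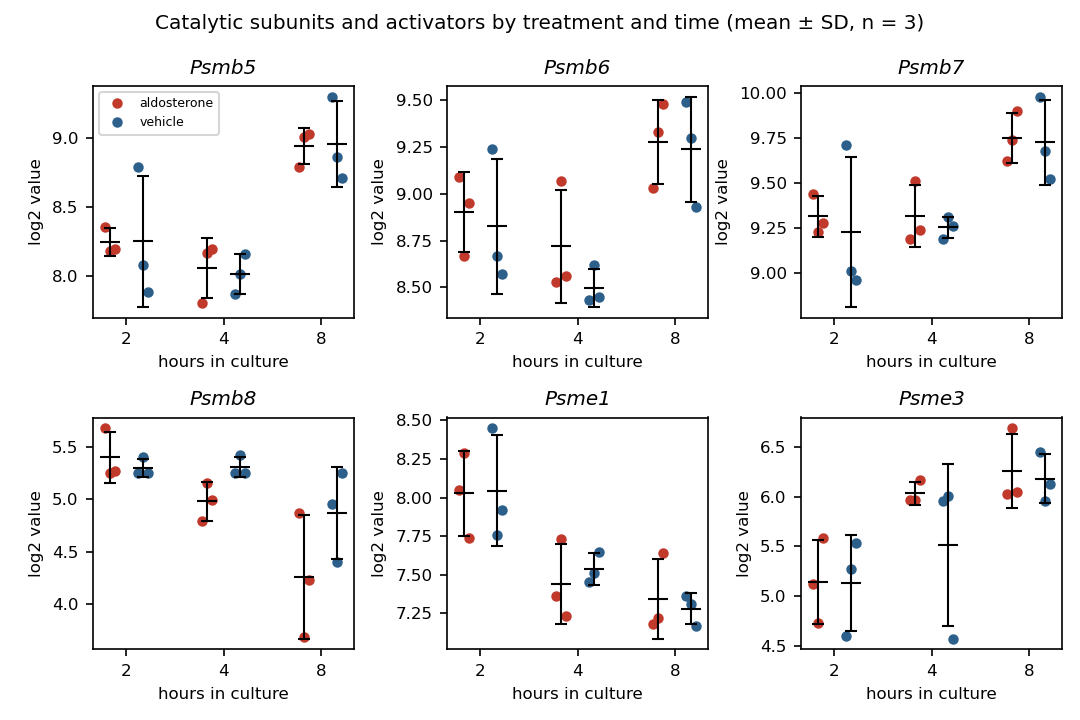
Log2 values of the 3 constitutive cutting subunits, the immunoproteasome subunit Psmb8 and the activators Psme1 and Psme3 in each sample by hours in culture, with group mean and SD (n = 3), aldosterone to the left of vehicle. Psmb5, Psmb6 and Psmb7 have their highest group means at 8 h, Psmb8 and Psme1 their lowest, and Psme3 has 1 low vehicle sample at 4 h (4.57).

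The immunoproteasome subunit Psmb8, which takes the place of Psmb5, fell with aldosterone in culture and did not pass the test with vehicle. Its values were 5.68, 5.25 and 5.27 with aldosterone and 5.25, 5.40 and 5.25 with vehicle at 2 h, and 4.79, 5.16 and 4.99 with aldosterone and 5.25, 5.42 and 5.25 with vehicle at 4 h. At 8 h they were 4.87, 3.69 and 4.23 with aldosterone and 4.96, 4.40 and 5.25 with vehicle. At 8 h the aldosterone samples lay below all aldosterone samples at 2 h, while the vehicle samples overlapped in time. The 8 h against 2 h difference was -1.13 ± 0.25 (adjusted p = 0.00096) with aldosterone and -0.43 ± 0.25 (adjusted p = 0.15) with vehicle, and the 8 h against 4 h difference was -0.72 (adjusted p = 0.034) with aldosterone and -0.44 (adjusted p = 0.19) with vehicle. Aldosterone against vehicle at 8 h gave -0.61 ± 0.25 with an adjusted p of 0.64, and the test of a different aldosterone effect between times gave an adjusted p of 0.95. The call with aldosterone between 4 and 8 h was lost without aldosterone 4 h or 8 h replicate 2 or 3 (adjusted p up to 0.20). That between 2 and 8 h held under the 27 alternatives that tested Psmb8. The filter at 6 left Psmb8 out, since its highest value was 5.68. Its signal was dim, and the value 5.25 recurred in several samples, which also limits its ratio to Psmb5.

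Psmb9 and Psmb10 lay near or under 4 in every sample and give no level here. Psmb9 was between 2.32 and 2.75 in all samples and Psmb10 between 3.27 and 4.04. The change of each immunoproteasome subunit relative to the subunit it replaces was tested with an exact two-sided permutation of the samples, within treatment for culture time and within time for aldosterone, and p-values were adjusted over the 6 tests. The log2 ratio of Psmb8 over Psmb5 changed by -1.48 at 8 h against 2 h (exact p = 0.01, adjusted p = 0.02, with 0.005 the smallest p possible). Group means of that ratio were -4.68 ± 0.70 with aldosterone and -4.09 ± 0.55 with vehicle at 8 h, against -2.85 ± 0.14 and -2.95 ± 0.51 at 2 h (SD, n = 3 each). With aldosterone against vehicle that ratio changed by -0.29 (exact adjusted p = 0.228). The ratios with Psmb9 and Psmb10 are given as values, since a subunit below the filter has no measured level and such a ratio does not test an exchange of subunits. Psmb10 over Psmb7 changed by -0.77 and Psmb9 over Psmb6 by -0.47 at 8 h against 2 h, and by -0.09 and -0.16 with aldosterone against vehicle. The group means of Psmb10 itself were 3.32 with aldosterone and 3.44 with vehicle at 8 h, against 3.68 and 3.68 at 2 h, and those of Psmb9 were 2.35 and 2.35 at 8 h, against 2.35 and 2.50 at 2 h.

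The activators, alternative caps of the core that work without ubiquitin, did not move as a group. Psme1, a subunit of the interferon-inducible cap, had values of 8.05, 8.29 and 7.74 with aldosterone and 8.45, 7.76 and 7.92 with vehicle at 2 h, and of 7.18, 7.22 and 7.64 with aldosterone and 7.36, 7.31 and 7.17 with vehicle at 8 h. The groups did not overlap, and the difference was -0.68 ± 0.19 (adjusted p = 0.0061) with aldosterone and -0.76 ± 0.19 (adjusted p = 0.0026) with vehicle. It was already lower at 4 h against 2 h, at -0.59 (adjusted p = 0.024) with aldosterone and -0.51 (adjusted p = 0.045) with vehicle. Those early calls were fragile: the first was lost without aldosterone 2 h replicate 1 or 2 or 4 h replicate 1 or 3 (adjusted p up to 0.12), and the second without any one of 11 samples, among them vehicle 2 h replicate 1 (-0.30, adjusted p = 0.19). Its partner Psme2 has no probe set of its own in the annotation and is not described.

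Psme3, the nuclear cap, rose instead, by 1.11 ± 0.34 (adjusted p = 0.0093) with aldosterone and 1.05 ± 0.34 (adjusted p = 0.013) with vehicle at 8 h against 2 h. These calls were lost without aldosterone 2 h or 8 h replicate 2 (adjusted p up to 0.053) and without vehicle 2 h or 8 h replicate 1 (up to 0.063). Its second probe set gave 2.14 with aldosterone and 2.12 with vehicle, both called. Psme4, a large single-chain cap, had a difference of -0.28 with aldosterone, which was not called, and of -0.57 ± 0.17 (adjusted p = 0.0093) with vehicle. The vehicle values of Psme4 were 9.64, 8.73 and 8.93 at 2 h and 8.45, 8.59 and 8.56 at 8 h. The highest, 9.64, came from vehicle 2 h replicate 1, the sample that stood apart, and lay 0.81 above the mean of its group mates. The larger vehicle difference rests in part on that sample. Psme3ip1, the binding partner of Psme3, rose by 1.08 ± 0.16 (adjusted p = 2.5e-05) with aldosterone and 0.94 ± 0.16 (adjusted p = 0.0001) with vehicle.

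**Figure D4:**
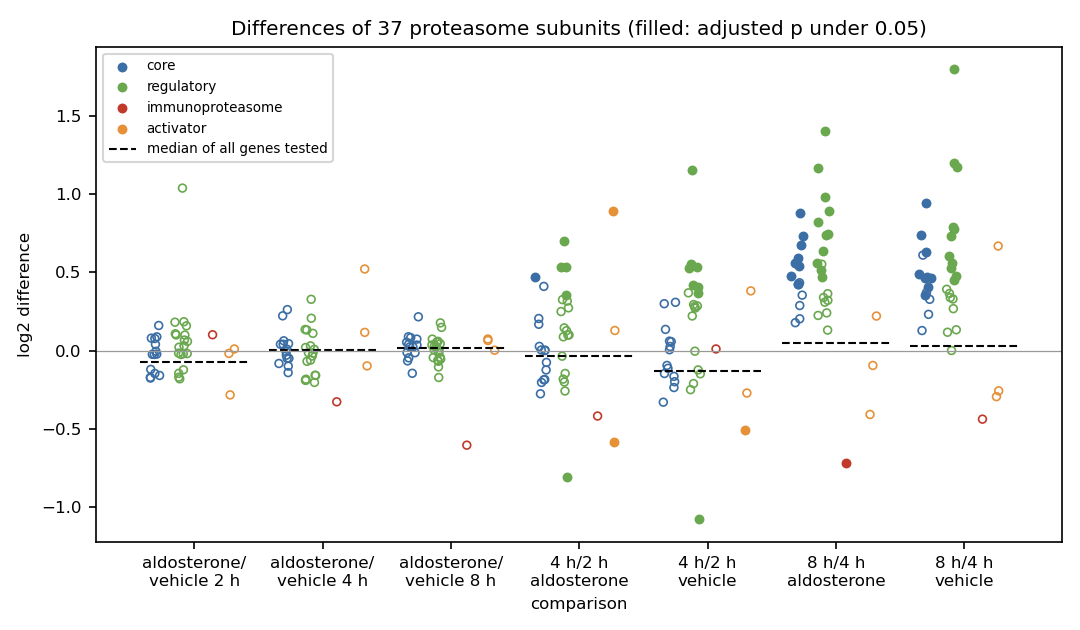
Log2 difference of each of the 37 tested subunits by class, for aldosterone against vehicle at 2, 4 and 8 h and for the steps of culture time in each treatment, with filled points for an adjusted p under 0.05 and a dashed line at the median of all 7092 genes. No point is filled for aldosterone, and the filled points of the 4 to 8 h steps are core and regulatory genes above 0, apart from Psmb8 with aldosterone at -0.72.

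Promoters of 3 members that hold a short motif were set beside that of Psmb8. Psmb5 and Psmd12 rose at 8 h against 2 h in both treatments, while Psmb6 was called higher only between 4 and 8 h. The 3 were chosen by the motif, so they do not compare members that rose with members that fell. RefSeq start sites on GRCm38.p6 gave a window for 36 of the 43 members, 250 bases before the start and 50 after it. The 250 upstream bases are shown for Psmb5 (chr14:54617996-54618245, minus strand), Psmb6 (chr11:70525107-70525356, plus strand), Psmd12 (chr11:107479278-107479527, plus strand) and Psmb8 (chr17:34197945-34198194, plus strand), since the first 3 hold the letters TGACNNNGC of the element bound by Nrf1 and Nrf2 and the last does not. Each runs 5′ to 3′ on the gene's strand, and capitals mark the match on either strand.
Psmb5: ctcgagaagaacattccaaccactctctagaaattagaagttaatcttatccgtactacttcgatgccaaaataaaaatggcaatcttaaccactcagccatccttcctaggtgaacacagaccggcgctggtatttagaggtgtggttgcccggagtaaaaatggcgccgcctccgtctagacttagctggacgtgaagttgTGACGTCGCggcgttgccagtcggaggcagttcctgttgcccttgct
Psmb6: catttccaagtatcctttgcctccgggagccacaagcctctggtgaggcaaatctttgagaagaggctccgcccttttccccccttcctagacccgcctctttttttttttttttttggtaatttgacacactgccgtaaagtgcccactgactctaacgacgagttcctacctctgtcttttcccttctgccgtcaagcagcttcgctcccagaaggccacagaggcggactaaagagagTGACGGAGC
Psmd12: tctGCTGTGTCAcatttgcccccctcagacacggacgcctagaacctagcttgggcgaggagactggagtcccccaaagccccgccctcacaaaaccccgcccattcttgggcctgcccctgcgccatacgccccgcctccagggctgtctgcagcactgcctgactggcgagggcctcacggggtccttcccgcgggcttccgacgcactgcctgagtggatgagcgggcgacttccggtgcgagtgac
Psmb8: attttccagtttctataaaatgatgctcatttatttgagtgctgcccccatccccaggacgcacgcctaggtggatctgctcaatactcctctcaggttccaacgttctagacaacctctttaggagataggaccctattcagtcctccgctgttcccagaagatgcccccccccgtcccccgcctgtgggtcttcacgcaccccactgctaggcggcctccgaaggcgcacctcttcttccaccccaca

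Searched on both strands of the whole 300-base window, TGACNNNGC was found in 6 of the 39 windows of the 36 members (15.4%), against 12.4% of the windows of all genes. The 6 windows belong to 6 genes. Besides the 3 printed these were Psmc6, Psmd9 and Psme4. GAAANNGAA, the core of the interferon response element, was in 6 of 39 (15.4%), against 8.56% of all windows, in Psmb3, Psmb4, Psmc2, Psmd4, Psmd9 and Psme1, and in none of Psmb8, Psmb9 and Psmb10. ACANNNTGT, the core of the element bound by steroid receptors, was in 0 of 39, against 6.85% of all windows, and CCAAT was in 15 of 39 (38.5%), against 37.4%. TGACNNNGC was thus absent from these windows of Psmd11, Psmd4 and Psmd14, which rose as Psmd12 did. A match describes letters only and is not a site of binding.

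Other genes that serve the proteasome were counted from lists, beside all genes tested, of which 29.2% rose and 27.3% fell with aldosterone and 26.6% rose and 31.9% fell with vehicle at 8 h against 2 h. Of 11 tested assembly and accessory genes, 5 rose and 1 fell at 8 h against 2 h with aldosterone, and 4 rose and 1 fell with vehicle, with medians of 0.58 and 0.38 beside 0.02 and -0.07 over all genes. The proteasome-bound deubiquitinases Usp14 (0.82 with aldosterone and 0.74 with vehicle) and Uchl5 (0.89 and 0.71) and the core assembly chaperones Psmg2 (0.81 and 0.60) and Psmg3 (0.67 in each) rose in both treatments. Psmg1, which pairs with Psmg2 in building the alpha ring, fell in both, with -0.80 with aldosterone and -0.79 with vehicle.

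Of 11 shuttle, p97 and ubiquitin genes, 6 rose and 2 fell in each treatment, with medians of 0.44 with aldosterone and 0.46 with vehicle. Nploc4, a cofactor of the p97 segregase Vcp, rose by 1.13 with aldosterone and 1.28 with vehicle. Zfand5, a proteasome-binding zinc finger protein, had -1.27 with aldosterone and -1.65 with vehicle, and the ubiquilin Ubqln2 had -0.86 and -0.83, all called lower.

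Among 8 genes of the Nrf1 and Nrf2 regulators, 5 rose and 1 fell with aldosterone, and 4 rose and 1 fell with vehicle, with medians of 0.48 and 0.39. Nfe2l1, which encodes Nrf1, rose by 0.59 in each treatment (adjusted p = 0.0057 with aldosterone and 0.0056 with vehicle), and Nfe2l2, which encodes Nrf2, by 0.53 and 0.71. Of their small Maf partners, Mafg rose by 1.20 with aldosterone and 0.88 with vehicle, whereas Mafk fell with -0.83 and -0.77. Transcript levels of these factors do not report their activity, which in Nrf1 depends on processing of the protein.

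Of 10 class I antigen processing and interferon response genes, 4 were lower and 1 higher with aldosterone, where 27.3% of all genes fell and 29.2% rose, and 5 were lower and 1 higher with vehicle, where 31.9% fell and 26.6% rose. Their medians were -0.24 with aldosterone and -0.56 with vehicle. Irf1, a transcription factor that drives Psmb8 and Psmb9 after interferon, had values of 7.86, 7.64 and 7.51 with aldosterone and 7.59, 7.65 and 7.85 with vehicle at 8 h, against 10.43, 10.04 and 10.52 with aldosterone and 10.96, 10.85 and 10.91 with vehicle at 2 h. All samples at 8 h lay below all samples at 2 h. The difference was -2.66 (adjusted p = 6.2e-10) with aldosterone and -3.21 (adjusted p = 5.1e-11) with vehicle. Tapbp, the peptide-loading chaperone tapasin, had -1.14 with aldosterone and -0.93 with vehicle, Jak2, a kinase of the interferon gamma receptor, -0.45 and -0.73, and B2m, the light chain of class I molecules, -0.39 and -0.59. Ifngr1, the ligand-binding chain of that receptor, rose by 0.69 with aldosterone and 0.66 with vehicle. Aldosterone against vehicle, in the mean over times, called 0 genes of these lists by limma. Without adjustment, p was under 0.05 for 2 of the 8 Nrf1 and Nrf2 regulators, 1 of the 10 class I and interferon genes, and 0 of 11 in each of the other lists.

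**Figure D5:**
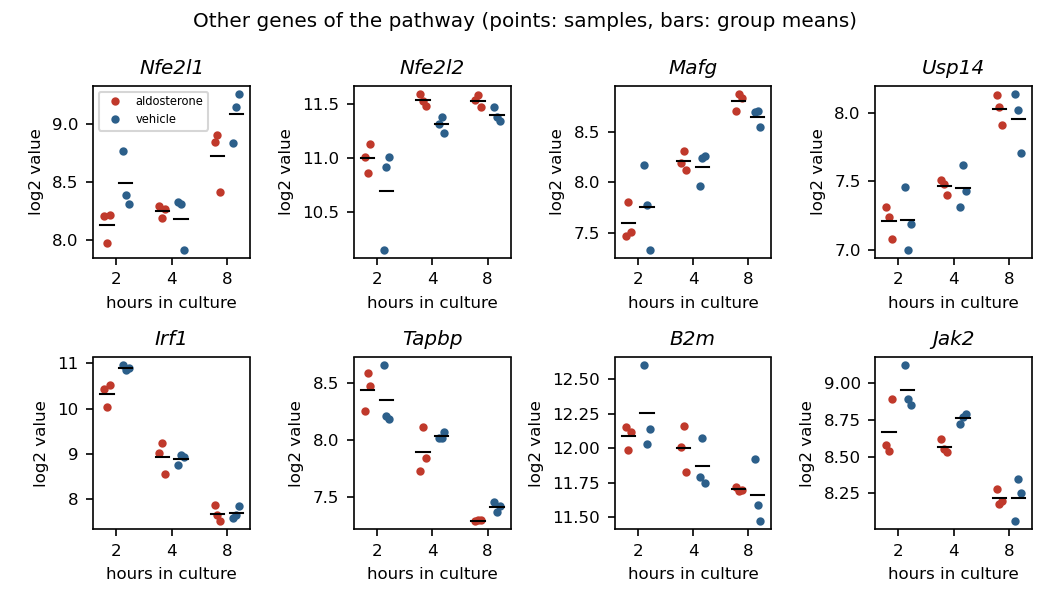
Log2 values in each sample of 8 genes linked to proteasome control, by hours in culture, with bars for the group means and aldosterone to the left of vehicle. Nfe2l1, Mafg and Usp14 have their highest group means at 8 h, and Irf1 (7.51 to 7.86 with aldosterone at 8 h), Tapbp, B2m and Jak2 their lowest.

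Markers of several cell types moved over the same hours. At 8 h against 2 h, 27.3% of all genes fell and 29.2% rose with aldosterone, and 31.9% fell and 26.6% rose with vehicle. Of 7 tested macrophage markers, 5 were lower and 1 higher in each treatment. Csf1r had -2.95 with aldosterone and -2.91 with vehicle, and Cd14 had the largest rise, 0.86 and 0.59. Ptprc, 1 of 2 tested lymphocyte markers of 8 listed, had -0.70 and -2.05. For aldosterone against vehicle at 8 h, 1 of 7 macrophage markers was called higher and 0 lower, beside 1% of all genes called. It was Mrc1, by 1.27, at 6.59, 6.45 and 5.98 with aldosterone against 5.4, 4.87 and 4.94 with vehicle. The summed level of the macrophage markers ranged from 9.69 to 9.88 with aldosterone and from 9.42 to 10.04 with vehicle at 8 h, against 10.70 to 10.95 and 10.54 to 11.48 at 2 h. Markers of fibroblasts were lower in 7 of 7 and of smooth muscle in 7 of 9 in each treatment, and 1 smooth muscle marker, Smtn, was higher with vehicle (0.60). Endothelial markers were lower in 4 of 7 in each treatment, and 1 of them, Cdh5, was higher with aldosterone (0.82), while adipocyte markers were lower in 3 of 4 with aldosterone and 4 of 4 with vehicle. The summed smooth muscle level was 15.20 to 15.46 with aldosterone and 15.31 to 15.60 with vehicle at 8 h. The falls of Psmb8 and Psme1 and the rises of the core and regulatory genes ran beside these changes, whose part in them was not tested. In whole tissue, fewer cells of a type and less RNA per cell cannot be told apart. The 3′ minus 5′ signal of the Gapdh control probe sets, a measure of RNA integrity, averaged 0.464 with aldosterone and 0.435 with vehicle at 8 h, against 0.608 and 0.611 at 2 h. That of the beta-actin control averaged 1.77 in each treatment at 8 h, against 1.83 with aldosterone and 1.95 with vehicle at 2 h. The beta-actin ranges at 2 and 8 h overlapped within each treatment, and the Gapdh ranges did not in either. With aldosterone the Gapdh range was 0.574 to 0.673 at 2 h and 0.448 to 0.491 at 8 h. With vehicle it was 0.559 to 0.645 and 0.355 to 0.528. The part of RNA integrity was not tested either.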

How the data were processed

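RNA of 18 samples was measured on 1-colour Affymetrix arrays. The deposited log2 values were made by the authors with GCRMA, per the submitters' processing notes, its version being not given in the sources used here. Of 22690 rows, 64 control probe sets and those without a single gene were left out, which kept 20380. Members were chosen by the gene symbols of the platform annotation. A gene was named by its RefSeq symbol where its gene number matched a RefSeq entry, and otherwise by the annotation.

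On genes above 4 in at least 3 samples, limma 3.58.1 (R 4.3.3) fitted the 6 group means jointly, its prior following intensity. Residual degrees of freedom were 12, and 17.2 with the prior. P-values were two-sided, Benjamini-Hochberg adjusted across the genes tested, and a gene was called below 0.05. Partner ratios used an exact permutation within strata. The number of arrays limits precision. The scripts were tested on simulated data.

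Named throughout were the constitutive and immunoproteasome cutting subunits, with up to 4 called genes per role or list by smallest p. Other genes are named where a count or a disagreement of probe sets concerns them. The members, lists and comparisons were chosen with earlier results of these data known.

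Replicate numbers were checked for pairing: samples sharing a number had a median correlation of deviations of -0.013 (6 of 45 pairs over 0.1), and samples with different numbers 0.007, so the numbers were not used as pairs. The labels call the pools biological replicates, and no 2 samples held identical values.

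The alternatives tried were omitting the trend, omitting the filter or raising it to 6, other choices of probe set, repeated quantile normalization, median centring, array weights, a replicate block, the compared groups alone, and leaving out each sample.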

Additional observations from a re-analysis of the deposited data

How the results depend on the processing

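The count of proteasome genes called for aldosterone against vehicle was 0 under every alternative, at 2, 4 and 8 h, in the mean over times and in the test of differences between times. At 8 h against 2 h the aldosterone count was 31 and ranged from 26 to 37 over 28 alternatives. The vehicle count, 29, was 15 (14 higher and 1 lower) when only the groups compared were fitted, which leaves fewer samples to estimate the spread, and 34 without vehicle 2 h replicate 1. At 4 h against 2 h with vehicle, 9 genes were called, against 14 with quantile normalization again (12 higher), 14 with median centring (12 higher), 14 with array weights (13 higher) and 1 with only the groups compared, and leaving out a sample gave 5 to 14. With aldosterone that step gave 9, and leaving out a sample gave 5 to 12. At 8 h against 4 h the vehicle count was 21, and leaving out a sample gave 13 to 29. The aldosterone count was 22, and array weights gave 34 (32 higher). With a replicate block the counts at 8 h against 2 h were 31 with aldosterone and 29 with vehicle, those at 8 h against 4 h 22 and 21, and those at 4 h against 2 h 8 and 8. Under it the 4 h against 2 h calls of Psme1 with vehicle (adjusted p = 0.059) and Psme3 with aldosterone (adjusted p = 0.06) were lost, and no other call of a named gene was. Median centring moved the median of all genes at 4 h against 2 h with vehicle to -0.02, against -0.13 in the values as deposited. The ratio of Psmb9 over Psmb6 at 8 h against 2 h, -0.47, ranged from -0.55 to -0.41 when a sample was left out, and its adjusted p was 0.05 without vehicle 2 h replicate 2 or 3, though Psmb9 lay below the filter. The other 5 partner ratio tests kept their side of the threshold, and among them only those of Psmb8 over Psmb5 concern a subunit above the filter. Ratios with Psmb9 or Psmb10 do not test an exchange of subunits. The share of all genes called under each alternative is not given here, so the shifts in count are not read as particular to proteasome genes. The causes of these shifts were not tested, and no result reversed its direction. Dim signal limits Psmb9, Psmb10, Psmd9, Psma8 and Psmc3ip, none of which was tested on its own. Psmb8, which was tested, was dim as well, with a highest value of 5.68.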
